A study of Mus musculus with 117 samples.

Results

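The switch regions described here are stretches of the mouse autosomes whose chromatin state in hepatocytes differed between inbred strains. Each was in state 1, 2 or 3 in some strains and in state 13 or 14 in others. The regions were chosen by the states themselves. A 200-bp bin was taken where at least 2 strains were in state 1, 2 or 3 and at least 2 others in state 13 or 14, adjacent bins were merged, and regions of 400 bp or more were kept. This gave 15827 regions with 58272 bins, 0.473% of the 12313718 autosomal bins, or 11.7 Mb. A strain is called on in a region where at least 50% of the region's bins are in states 1 to 3, off where at least 50% are in state 13 or 14, and mixed otherwise. The deposited segmentation divides the genome among 14 states. State numbers are used only as names, since the histone mark content of the states is not given in the sources used here, so "on" and "off" are shorthand for these numbers and not for transcription.

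The series is ChIP-seq of liver hepatocytes, the parenchymal cells that carry most of the organ's metabolism, from female mice aged 12 weeks. The labels name no treatment. The 9 inbred strains were the wild-derived CAST/EiJ, PWK/PhJ and WSB/EiJ and the classical laboratory strains C57BL/6J, 129S1/SvImJ, A/J, NZO/HlLtJ, DBA/2J and NOD/ShiLtJ. Each strain had libraries for H3K4me1, H3K4me3, H3K27ac and H3K27me3 from 3 mice and 1 input library without antibody, 117 libraries in all. The authors deposited 1 segmentation per strain, so the 9 strains are the only replicates, no error within a strain can be given, and the read depth behind each state is unknown. Each SD is taken across strains (n = 9).

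Histone H3 trimethylated at lysine 4 is found at active promoters, monomethylation of the same lysine marks enhancers, acetylation of lysine 27 marks active promoters and enhancers, and trimethylation of lysine 27 is laid down by Polycomb complexes at silent developmental genes. Enhancers lie away from gene starts and differ between individuals and species more readily than promoters do. CAST/EiJ and PWK/PhJ derive from the mouse subspecies castaneus and musculus, whereas the classical strains and WSB/EiJ are mostly of the subspecies domesticus.

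A few regions cover the start of a gene, and promoter sequences show what kind of start they are. The sequences are RefSeq's for C57BL/6J (GRCm38.p6, which has the coordinates of mm10), 250 bases before to 50 after the start, 5′ to 3′ on the strand of the gene, and they are the same for all strains because only the reference was read. Cfhr3, a complement factor H-related gene, and Gm4788, a predicted gene on the same chromosome, were both off in NOD/ShiLtJ and WSB/EiJ alone. They are shown because their promoters are near copies of each other, with 261 identical bases in an alignment of 321 columns (81.3%). Capitals mark TGTTTAC, a forkhead-type motif searched on both strands, at chr1:139660957-139661256 (minus strand) and chr1:139781190-139781489 (minus strand).
Cfhr3: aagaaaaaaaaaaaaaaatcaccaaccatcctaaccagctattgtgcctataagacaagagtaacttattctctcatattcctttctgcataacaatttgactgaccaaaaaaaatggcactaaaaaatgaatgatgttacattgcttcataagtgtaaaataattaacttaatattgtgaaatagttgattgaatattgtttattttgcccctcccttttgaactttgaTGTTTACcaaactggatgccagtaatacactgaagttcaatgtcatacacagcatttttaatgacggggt
Gm4788: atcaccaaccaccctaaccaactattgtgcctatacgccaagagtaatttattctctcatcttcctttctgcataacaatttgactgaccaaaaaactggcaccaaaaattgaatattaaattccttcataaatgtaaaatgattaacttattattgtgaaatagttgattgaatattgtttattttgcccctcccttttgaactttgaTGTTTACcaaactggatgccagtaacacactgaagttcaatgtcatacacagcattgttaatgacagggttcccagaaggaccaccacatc

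Trim30d and Trim12a belong to a family of antiviral and interferon-inducible TRIM proteins, and their starts differed between strains in unlike ways. Capitals mark the core of the interferon-stimulated response element, GAAA, any 2 bases and GAAA, here read on the opposite strand. Their promoters lie at chr7:104507800-104508099 (minus strand) and chr7:104315446-104315745 (minus strand) and share 47.4% of aligned bases.
Trim30d: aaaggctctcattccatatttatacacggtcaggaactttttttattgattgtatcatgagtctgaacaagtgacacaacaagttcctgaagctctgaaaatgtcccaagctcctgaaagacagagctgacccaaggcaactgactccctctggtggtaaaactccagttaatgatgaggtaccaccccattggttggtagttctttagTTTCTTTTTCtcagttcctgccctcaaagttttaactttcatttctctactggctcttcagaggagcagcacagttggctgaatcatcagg
Trim12a: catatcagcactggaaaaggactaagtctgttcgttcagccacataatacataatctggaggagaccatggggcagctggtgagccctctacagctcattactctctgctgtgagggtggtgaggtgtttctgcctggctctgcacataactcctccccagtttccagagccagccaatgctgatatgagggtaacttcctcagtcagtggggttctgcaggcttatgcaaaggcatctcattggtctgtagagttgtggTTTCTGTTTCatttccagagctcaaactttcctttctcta

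The last sequences show the range of CpG content among these starts, with each CG in capitals. Sult1e1, oestrogen sulfotransferase, and Cyp2c39, a cytochrome P450, each hold 1 CpG in 300 bases, and their off strains were in state 14. Erc2, a scaffold protein of the presynaptic active zone, and Mrap2, a melanocortin receptor accessory protein, hold 31 and 24 CpG, and their off strains were in state 13. These have the highest ratios of observed to expected CpG of the 13 starts in state 13 in at least 2 strains, 10 of which have a ratio of at most 0.6, so the examples do not stand for state 13 starts in general. The 4 promoters lie at chr5:87591562-87591861 (minus strand), chr19:39347096-39347395 (plus strand), chr14:27622157-27622456 (plus strand) and chr9:87144056-87144355 (plus strand).
Sult1e1: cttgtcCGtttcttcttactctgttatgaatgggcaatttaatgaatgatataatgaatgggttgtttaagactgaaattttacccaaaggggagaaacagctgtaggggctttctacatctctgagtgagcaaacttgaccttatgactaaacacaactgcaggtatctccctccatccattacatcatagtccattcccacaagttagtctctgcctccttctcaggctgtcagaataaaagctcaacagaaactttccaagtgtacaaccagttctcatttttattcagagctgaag
Cyp2c39: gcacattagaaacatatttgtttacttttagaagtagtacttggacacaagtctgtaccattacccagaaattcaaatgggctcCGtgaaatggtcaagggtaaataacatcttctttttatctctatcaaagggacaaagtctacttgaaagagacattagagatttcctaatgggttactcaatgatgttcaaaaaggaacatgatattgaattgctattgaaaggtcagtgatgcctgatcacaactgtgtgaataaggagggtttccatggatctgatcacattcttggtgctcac
Erc2: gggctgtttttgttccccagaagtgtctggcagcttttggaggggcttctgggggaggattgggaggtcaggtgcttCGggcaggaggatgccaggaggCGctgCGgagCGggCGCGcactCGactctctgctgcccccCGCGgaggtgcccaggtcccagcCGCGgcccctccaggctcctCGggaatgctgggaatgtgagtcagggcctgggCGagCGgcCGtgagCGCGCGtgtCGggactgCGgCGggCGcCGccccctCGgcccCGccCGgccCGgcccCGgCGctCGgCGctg
Mrap2: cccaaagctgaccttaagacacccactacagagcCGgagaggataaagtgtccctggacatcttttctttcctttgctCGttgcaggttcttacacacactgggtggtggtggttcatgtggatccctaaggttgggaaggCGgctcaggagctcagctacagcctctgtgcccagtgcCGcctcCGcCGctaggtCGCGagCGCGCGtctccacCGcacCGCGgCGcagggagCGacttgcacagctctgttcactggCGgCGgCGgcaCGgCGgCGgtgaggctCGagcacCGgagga

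The hepatocyte label was checked at the starts of marker genes, in bins within 1 kb of the start. Starts of 16 hepatocyte markers such as Alb and Apoa1 were on in 98.2% ± 2.81 of bins. Starts of 21 Kupffer cell and leukocyte markers were on in 2.78% ± 1.66, and those of 21 developmental regulators in 0%. Starts of 12 endothelial markers were on in 31.2% ± 10.7, from 17.5% in A/J to 51.9% in PWK/PhJ, and those of 14 stellate and bile duct markers in 8.70% ± 3.88. All coding starts together were on in 41.4% ± 1.21 of bins. State 3 was 37.2 ± 1.95 times and state 1 was 9.94 ± 0.858 times as frequent within 1 kb of coding starts as over all autosomal bins, whereas state 2 was 0.613 ± 0.0518 times as frequent.

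Switch regions were short. Their lengths ran from 400 to 9000 bp with a median of 600 bp. Regions of 400 bp made up 45.3% (7162), those of at least 1000 bp 22% (3480), and only 18 reached 5000 bp. Regions on in all 9 strains, built in the same way and called stable regions here, numbered 37218 and had a median of 1400 bp. A further set with at least 2 strains in state 4 and at least 2 in state 14, called 4/14 switches, numbered 50734 with a median of 1000 bp. Runs of a single bin that met the rule numbered 17101 and were left out by the length limit.

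The rule takes in many bins at its threshold. Exactly 2 strains were on in 41.5% of the bins of switch regions and exactly 2 were off in 39.9%, and the median bin had 3 strains on and 3 off. All 9 strains were either on or off in 18.8% of these bins. Just outside the threshold lay 100672 autosomal bins with 1 strain on and at least 2 off, and 69779 with at least 2 on and 1 off.

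The strains differed in how the regions were called. 129S1/SvImJ was on in 50.6% of regions, off in 28.4% and mixed in 21.1%. PWK/PhJ was on in 32.0%, off in 55.7% and mixed in 12.3%. These strains were the extremes of the set, 129S1/SvImJ with the highest share on and PWK/PhJ with the highest share off. A/J was on in 32.0% and off in 39.8%, and CAST/EiJ on in 37.4% and off in 44.6%. C57BL/6J was on in 42.2% and off in 33.8%, DBA/2J in 38.5% and 36.9%, NOD/ShiLtJ in 36.7% and 36.6%, NZO/HlLtJ in 38.2% and 38.4%, and WSB/EiJ in 38.2% and 39.4%. Over all autosomal bins the strains lay closer together, with 4.77% of bins on in A/J, the lowest, and 5.91% in 129S1/SvImJ, the highest. The order of the strains in the regions is a description, because the same states chose the regions.

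**Figure D1:**
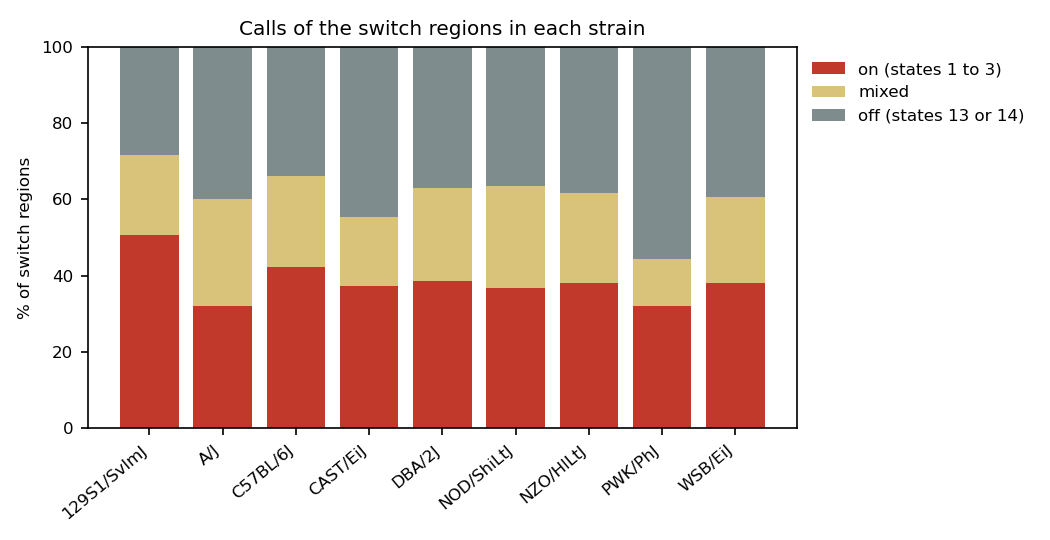
Stacked bars give, for each of the 9 strains, the percentage of the 15827 switch regions called on (states 1 to 3), mixed or off (state 13 or 14). The on share runs from 32.0% in A/J and PWK/PhJ to 50.6% in 129S1/SvImJ, and PWK/PhJ has the smallest mixed share, 12.3%.

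Within states 1 to 3, the switch regions were mostly in state 2. State 2 made up 74.5% ± 4.25 of a strain's on bins inside the regions and 43.0% ± 4.03 of its on bins elsewhere on the autosomes, a difference of 31.5 ± 2.48 percentage points (n = 9, exact two-sided sign-flip test, Benjamini-Hochberg adjusted p = 0.0039, the smallest this test can give). It was higher in 9 of 9 strains, with 81.2% inside against 48.5% elsewhere in C57BL/6J and 66.3% against 36.1% in NZO/HlLtJ. State 1 made up 21.9% ± 3.77 inside and 49.0% ± 3.59 elsewhere, and state 3 made up 3.59% ± 0.910 inside and 8.01% ± 0.750 elsewhere, each lower in 9 of 9 strains (exact adjusted p = 0.0039). The strain values inside and outside the regions did not overlap for any of the 3 states. Among bins farther than 1 kb from a coding start, state 2 made up 75.2% ± 4.24 inside and 49.0% ± 4.56 elsewhere and state 1 made up 21.5% ± 3.73 against 47.4% ± 4.18 (exact adjusted p = 0.0059), whereas state 3 made up 3.35% ± 0.911 against 3.65% ± 0.570 (lower in 6 of 9 strains, exact adjusted p = 0.16), a comparison added after the data had been seen.

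State 13 was rare on the off side. It made up 3.35% ± 1.10 of a strain's off bins inside the regions and 12.6% ± 1.54 elsewhere, a difference of -9.28 ± 1.04 percentage points, lower in 9 of 9 strains (n = 9, exact two-sided sign-flip test, p = 0.0039). The highest value inside was 5.47% in WSB/EiJ and the lowest elsewhere was 10.7% in C57BL/6J, so the ranges did not overlap. The off strains of most regions were thus in state 14, and 267 regions (1.69%) had off strains mostly in state 13.

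Strains that were neither on nor off in a bin were mostly in state 4 or 6. State 4 covered 10.7% ± 3.07 and state 6 covered 11.6% ± 4.13 of the bins of switch regions, and each of the other states from 5 to 12 covered at most 1.12% on average. The balance between them differed by strain: state 6 made up 71.3% of states 4 and 6 in NOD/ShiLtJ and 66.4% in A/J, against 35.5% in 129S1/SvImJ and 41.0% in C57BL/6J. Outside the regions the share was 59.9% in NOD/ShiLtJ and 56.7% in A/J, again the highest, and 39.9% in 129S1/SvImJ, again the lowest, followed by CAST/EiJ with 42.1% and C57BL/6J with 42.6%.

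The surroundings of a region differed between its on and off strains. In bins 1 to 2 kb outside the ends, states 4 to 12 covered 31.5% ± 2.69 beside regions where the strain was on and 15% ± 1.44 beside regions where it was off, a difference of 16.5 ± 2.71 percentage points in 9 of 9 strains (n = 9, exact two-sided sign-flip test, p = 0.0039). CAST/EiJ had the highest value beside on regions, 36.9%, and the lowest value beside off regions was 12.4% in 129S1/SvImJ. Directly at the end of a region, at a bin centre 100 bp outside, on strains were in states 1 to 3 in 45.2% ± 3.34 of bins and off strains in 3.68% ± 0.852. At 1900 bp these shares were 19.3% ± 1.48 and 8.99% ± 0.939. The run of states 1 to 3 that covered a region had a median of 1400 bp in the on strains, and 50.4% of on calls had a run over 2 times as long as the region. Neighbouring bins of 1 segmentation are not independent of each other, and the on runs often reach past the region. The test therefore cannot tell a trait of the surroundings from the continuation of the same domain.

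**Figure D2:**
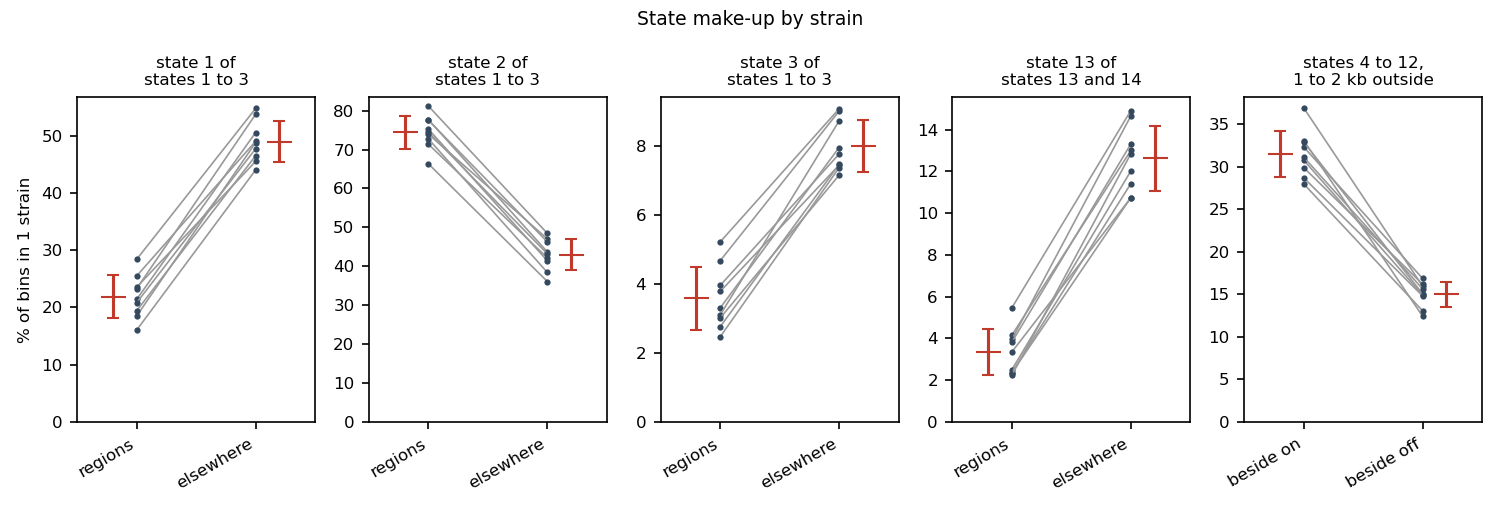
Each line joins the 2 values of 1 strain, as percentages of bins, and the red marks are means ± SD over 9 strains. The first 4 panels compare switch regions with the rest of the autosomes, and the last compares bins 1 to 2 kb beside regions where the strain is on with those where it is off. State 2 rises from 43.0% elsewhere to 74.5% in the regions in the mean, and every line in a panel slopes the same way.

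Calls in all 9 strains were available for 3205 regions (20.3%), the others having at least 1 mixed strain. These fell into 434 different patterns of the 492 that the rule allows. CAST/EiJ and PWK/PhJ stood apart from the other 7 strains in 832 regions, 26.0% of the fully called ones, 423 with this pair on and 409 with it off. The next most frequent split set CAST/EiJ, PWK/PhJ and WSB/EiJ apart and had 138 regions, 54 with the trio on and 84 with it off. CAST/EiJ with WSB/EiJ stood apart in 75 regions and CAST/EiJ, NZO/HlLtJ and PWK/PhJ in 69. Of the 246 ways of dividing the strains, 241 were seen, with a median of 6 regions each. The number of regions depends on this pair: without PWK/PhJ the rule gave 9415 regions, and without CAST/EiJ 10213.

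Pairs of strains were also compared by their calls within the regions. CAST/EiJ and PWK/PhJ had the same call in 7793 of the 11478 regions called in both (67.9%). Each of them had the same call as any of the 6 classical strains in at most 35.4% of regions, and 129S1/SvImJ with PWK/PhJ in 28.4%, the lowest of the 36 pairs. The highest agreement was 69.1%, between A/J and NOD/ShiLtJ, and 129S1/SvImJ with C57BL/6J had 65.4%. WSB/EiJ lay between, with 42.4% for CAST/EiJ, 37.1% for PWK/PhJ and 51.8% to 57% for the classical strains. The mean over pairs was 50.03% ± 14 (SD over 36 pairs, which share strains). The rule demands disagreement, so these percentages order the pairs and do not measure how alike the strains are over the genome. Over all autosomal bins that were on in at least 1 strain of a pair and on or off in the other, the order was different. CAST/EiJ and PWK/PhJ were both on in 87.5% of those bins, less than CAST/EiJ with any classical strain (88.6% to 89.4%). PWK/PhJ had 86.9% to 87.9% with the classical strains, and A/J with NOD/ShiLtJ had 96.3%.

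**Figure D3:**
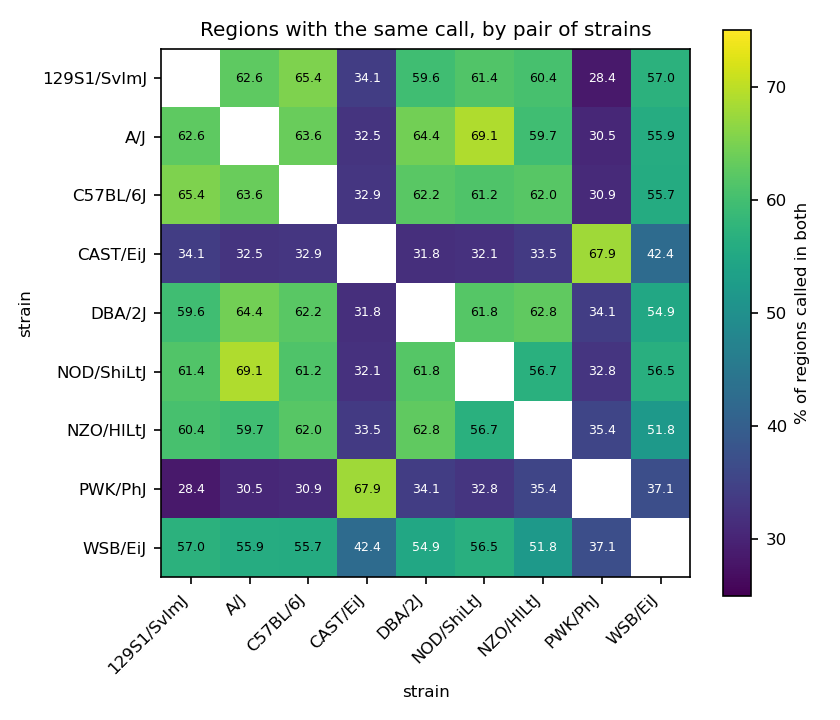
Each cell gives the percentage of switch regions called on or off in both strains that have the same call. CAST/EiJ with PWK/PhJ (67.9%) and A/J with NOD/ShiLtJ (69.1%) are the highest cells, and the cells that join CAST/EiJ or PWK/PhJ with the classical strains are at or under 35.4%.

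Neighbouring switch regions tended to have the same calls. For consecutive regions up to 2 kb apart, 94.9% of strains called in both had the same call, and 84.2% of the 323 fully called pairs had the same pattern of all 9 strains. The share of same calls was 82.6% at 2 to 10 kb, 64.2% at 10 to 100 kb, 53.1% at 100 kb to 1 Mb and 51.1% beyond 1 Mb. Same full patterns made up 65.9%, 27.5%, 8.94% and 5.88% of 135, 207, 179 and 17 fully called pairs at these distances, the last being 1 pair. Both shares were lower in each farther class. Regions close together can be pieces of 1 domain separated by a bin outside the rule.

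**Figure D4:**
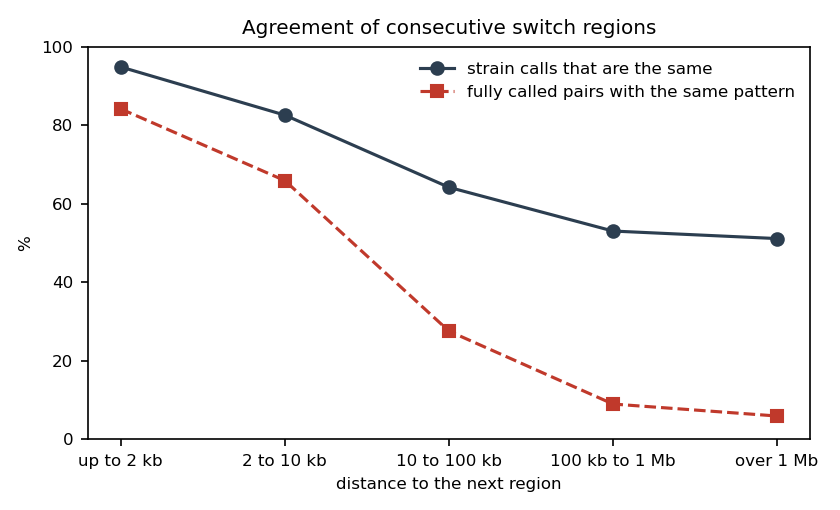
Circles give the percentage of strain calls that are the same in consecutive switch regions, and squares the percentage of fully called pairs with the same pattern of 9 strains, by distance between the regions. Both fall with distance, from 94.9% and 84.2% up to 2 kb to 51.1% and 5.88% beyond 1 Mb. The last square rests on 1 of 17 pairs.

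Switch regions lay near gene starts far less often than stable regions did, and about as often as bins of the autosomes at large. Of the 15273 regions off chromosome 18, for which no start sites were used, 334 (2.19%) lay within 1 kb of a protein-coding start, against 23.1% of stable regions, 1.87% of 4/14 switches and 1.62% of all autosomal bins. Start sites were held for 16457 genes, against 20665 coding autosomal genes, so starts of the other genes are not counted here. Counted by bins, the shares were 1.75% for switch regions, 18.6% for stable regions and 0.981% for 4/14 switches. In the body of a coding gene lay 56.9% of switch regions, 70.0% of stable regions, 56.8% of 4/14 switches and 40.1% of all bins. Farther than 5 kb from any annotated gene lay 22.6%, 11.9%, 21.3% and 41.7%. A bin on in all 9 strains lay within 1 kb of 12.2% of switch regions, 21.4% of 4/14 switches and 5.57% of all autosomal bins. Such a bin touched 117 switch regions (0.739%), 0.552% of 4/14 switches and 3.604% of all autosomal bins. The shares of all autosomal bins include the bins on in all 9 strains themselves. By their rules, switch regions and 4/14 switches cannot contain such a bin, so these shares are not on the same footing.

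Position went with the state. Regions whose on strains were mostly in state 2 numbered 12163 (76.8%), and 0.947% of those lay within 1 kb of a coding start. The share was 6.89% for the 1572 regions mostly in state 1 and 13.2% for the 528 mostly in state 3. For the 267 regions with off strains mostly in state 13 it was 13.3%. States 1 to 3 had the same order over the autosomes at large. Within 1 kb of coding starts, states 1, 2 and 3 were 9.94, 0.613 and 37.2 times as frequent as over all autosomal bins. State 13 was 1.17 times as frequent there. In the 985 region bins within 1 kb of a start, state 1 made up 46.8% ± 3.27, state 2 made up 35.8% ± 5.86 and state 3 made up 17.4% ± 4.46 of on bins, and state 13 made up 14.4% ± 3.79 of off bins. Of all bins that near to a coding start, 24.8% were in state 1, 1.42% in state 2 and 15.2% in state 3. State 13 held 12.8% of them and state 14 held 27.9%. State 2 was thus the rarest on state near starts at large, and state 13 a larger part of the off bins than in the regions. These differences were not tested.

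Density along the genome was 6.43 regions per Mb, from 5.22 on chromosome 3 to 8.16 on chromosome 19. Per stable region the order was different, from 0.337 on chromosome 11 and 0.343 on chromosome 19 to 0.538 on chromosome 12. Among 484 windows of 5 Mb the median held 29 regions. The densest windows were 75 to 80 Mb of chromosome 15, with 118 regions, and 135 to 140 Mb of chromosome 4, with 112.

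The longest switch region, 9000 bp at chr9:87118001-87127000, lay between genes, 17306 bp before the start of Mrap2. CAST/EiJ, DBA/2J and NZO/HlLtJ were on, in state 2 for 34, 26 and 26 of its 45 bins and in state 1 for 11, 19 and 15. The other 6 strains were off, and 5 of them were mostly in state 13, which covered 45 bins in 129S1/SvImJ, 44 in A/J, 38 in WSB/EiJ and 32 in both C57BL/6J and PWK/PhJ. NOD/ShiLtJ was in state 14 in 39 bins. Thus no strain was mixed, and the groups were in opposite states over nearly the whole length. The start of Mrap2 itself lay in a second region, chr9:87144201-87145600, where DBA/2J and NZO/HlLtJ were in state 1 in all 7 bins. Of the 6 strains off upstream, 5 were in state 13 in all 7 bins there and WSB/EiJ in 6, while CAST/EiJ was in states 5, 11 and 12. In the 3 other regions within 100 kb of the longest one, all 24 strain calls made in both were the same. CAST/EiJ, on in the longest region, was mixed in all 3 and is in none of these comparisons. Mrap2 was chosen for description after its start-site states were seen.

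**Figure D5:**
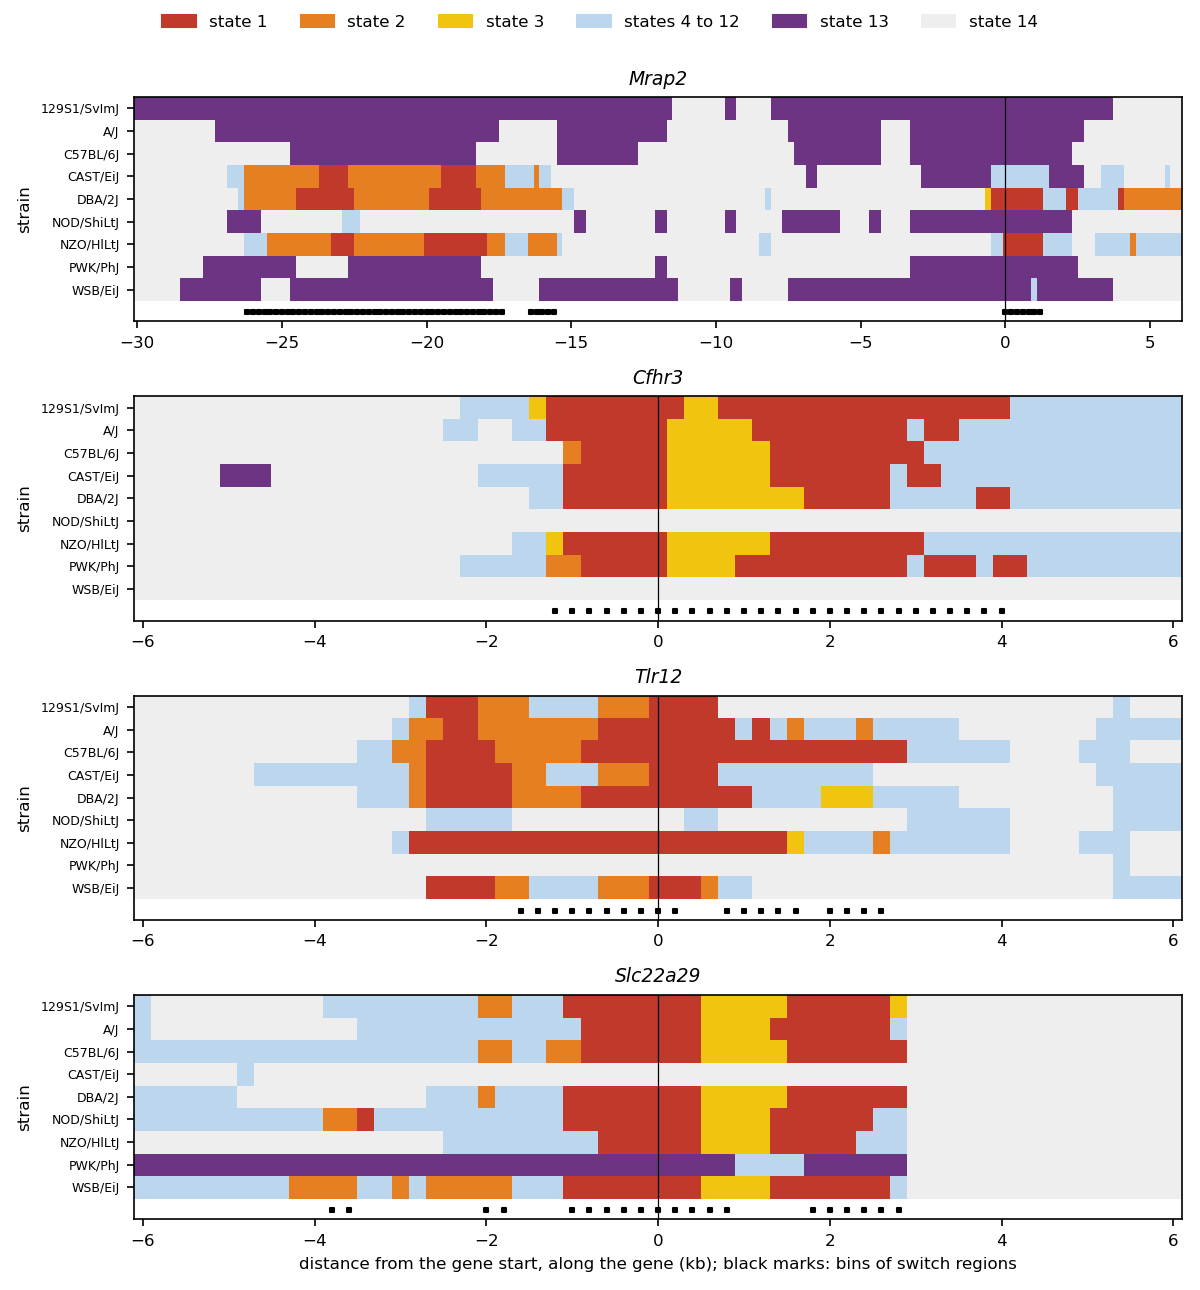
Tiles give the state of each 200-bp bin in each of the 9 strains by distance in kb. Distance is from the start site of Mrap2, Cfhr3 and Tlr12 and from the annotated 5′ end of Slc22a29. The vertical line is at that point, and black marks lie under the bins of switch regions. Near Mrap2, CAST/EiJ, DBA/2J and NZO/HlLtJ are mostly in states 1 and 2 upstream where 5 strains are mostly in state 13. At Cfhr3, NOD/ShiLtJ and WSB/EiJ are in state 14 throughout the window.

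Other long regions lay inside genes. In Tiam2, a Rac exchange factor, a region of 8000 bp (chr17:3486201-3494200, 2711 bp from the start) was on in C57BL/6J, DBA/2J and NZO/HlLtJ and off in A/J, NOD/ShiLtJ and PWK/PhJ. State 1 covered 37 of its 40 bins in NZO/HlLtJ and state 14 all 40 in NOD/ShiLtJ. In Atg7, which encodes the activating enzyme of autophagy, a region of 6800 bp (chr6:114649801-114656600) was in state 14 in all 34 bins in CAST/EiJ and PWK/PhJ. The other 7 strains were on there, with state 2 in 24 to 31 bins. In Dclk3, a kinase gene, 6600 bp (chr9:111455001-111461600) were on in the 6 classical strains and off in CAST/EiJ, PWK/PhJ and WSB/EiJ, so the division followed the wild-derived strains.

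The remaining long regions divided the strains in other ways. The region of 6400 bp in BC053393 (chr11:46578001-46584400) was on in C57BL/6J, DBA/2J and NZO/HlLtJ, the same trio as in Tiam2. The region of 6000 bp at Mettl7a3 (chr15:100344201-100350200) was in state 14 in all 30 bins in NOD/ShiLtJ and NZO/HlLtJ and in 27 in PWK/PhJ. In Tmc5 (chr7:118599601-118605400) only DBA/2J and PWK/PhJ were on. The region 9677 bp from the start of Tnfrsf14, a lymphocyte co-signalling receptor, was mostly in state 1 in its 5 on strains. In Myom2, a sarcomere protein (chr8:15080201-15085800), 129S1/SvImJ, NZO/HlLtJ and PWK/PhJ were on and WSB/EiJ was in state 13 in all 28 bins. In Nhsl1 (chr10:18367401-18373000) A/J and DBA/2J were off and the other 7 strains on.

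In 481 regions every strain was on in all bins or off in all bins. Of the 10 longest of these, 6 had CAST/EiJ and PWK/PhJ alone on. A pair of them, 3400 and 3000 bp, lay in Eya1, a developmental transcription coactivator (chr1:14178801-14182200 and chr1:14183001-14186000). State 2 covered 12 of 17 bins in both strains in the first and all 15 in the second, against state 14 in every bin of the other 7 strains. A region of 3000 bp in Phf21a, a histone demethylase complex subunit (chr2:92348801-92351800), had the same division. In Skint6, a gene of the butyrophilin-related family, 2 regions of 2400 bp (chr4:113008401-113010800 and chr4:113262601-113265000) were on in C57BL/6J and NZO/HlLtJ alone. A region 58910 bp from the start of Apol7a (chr15:77337201-77340200) was off in NOD/ShiLtJ and NZO/HlLtJ alone and in state 1 in 8 to 13 of 15 bins elsewhere. A region of 3000 bp on chromosome 8 (chr8:35086601-35089600) was on in C57BL/6J, CAST/EiJ and PWK/PhJ. CAST/EiJ and PWK/PhJ alone were on in the remaining 3, at chr3:95711401-95714200 (23484 bp from the start of Adamtsl4), chr3:53672201-53674800 (14846 bp from that of Frem2) and chr18:4444801-4447400.

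Start sites in switch regions were few. Of 20085 coding start sites, 109 (0.543%), belonging to 98 genes, had their own bin in a region, against 9125 on and 5583 off in all 9 strains. Of these 98 genes 33 were off in both CAST/EiJ and PWK/PhJ at the start bin and 18 were on in both. In 19 genes every strain was either on or off at the start bin. CAST/EiJ and PWK/PhJ alone were off at 4 of these, Camk1d, Sult1e1, Erc2 and Adgrf1, and alone on at 2, Mcf2l and Slc15a2. NOD/ShiLtJ and WSB/EiJ alone were off at 3, Cfhr3, Gm4788 and Slco1c1. Camk1d, Erc2, Adgrf1, Mcf2l, Slc15a2, Slco1c1, Srd5a2 and Trim12a are named because of these states, after their values were seen.

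At Camk1d, a calmodulin-dependent kinase, CAST/EiJ and PWK/PhJ were in state 14 in all 11 bins of the region, and state 1 covered 11 bins in 5 strains, 9 in NOD/ShiLtJ and 8 in WSB/EiJ. At Adgrf1, an adhesion G protein-coupled receptor, CAST/EiJ was in state 14 in 10 of 10 bins and PWK/PhJ in 7, with state 13 in the other 3. Slc15a2, a peptide transporter, was in state 2 in CAST/EiJ and PWK/PhJ and in state 14 in the other 7 strains, in both bins. Mcf2l had the same division, but the 7 off strains were in state 13 in all 3 bins. These 4 starts show that the pair could be on or off, and that the off state could be 13 or 14.

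At Cfhr3, state 14 covered all 27 bins of chr1:139657001-139662400 in NOD/ShiLtJ and WSB/EiJ. State 1 covered 13 to 25 bins in the other 7 strains, and state 3 covered 2 to 8. At Gm4788 (chr1:139780201-139782600) state 14 covered all 12 bins in the same pair, and state 1 covered 4 to 9 and state 3 covered 3 to 5 bins in the others. The call of every strain was the same at the 2 genes, whose promoters are printed above, and reads from such near copies may be placed on either. Slco1c1, a thyroid hormone and organic anion transporter, was likewise in state 14 in all 10 bins in NOD/ShiLtJ and WSB/EiJ, with state 2 in 5 to 8 bins elsewhere.

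At the start of Tlr12, a toll-like receptor, NOD/ShiLtJ and PWK/PhJ were in state 14 in all 10 bins of chr4:128618401-128620400. NZO/HlLtJ was in state 1 in all 10, and the other 6 strains in states 1 and 2 in 6 to 10. At the annotated 5′ end of Slc22a29, an organic anion transporter family member (chr19:8252401-8254400), 7 strains were on, with state 1 in 6 to 8 and state 3 in 2 of 10 bins. The nearest start site used here, also of Slc22a29, lies 33501 bp away. CAST/EiJ was in state 14 and PWK/PhJ in state 13 in all 10 bins, so strains that are both off were in different states. At Kcnip3, a calcium-binding potassium channel partner (chr2:127521001-127524600), 129S1/SvImJ, A/J, NOD/ShiLtJ and NZO/HlLtJ were on, and state 13 covered 16 of 18 bins in C57BL/6J, 13 in DBA/2J, 14 in WSB/EiJ and 9 in CAST/EiJ. PWK/PhJ was in state 14 in all 18.

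State 13 was found in at least 2 strains at the start bin of 13 genes, among them Srd5a2, a steroid 5-alpha reductase. At Srd5a2 4 strains were in state 13 at the start bin, whereas state 1 covered 3 of 4 bins in A/J and NZO/HlLtJ and state 2 all 4 in DBA/2J. At Erc2, CAST/EiJ and PWK/PhJ were in state 13 in all 3 bins, and all 7 other strains were in state 3 at the start bin. The ratio of observed to expected CpG in the promoters of the 13 genes ran from 0.1096 at Galnt9 to 0.815 at Mrap2, with a median of 0.444.

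Promoters of start sites in switch regions were poor in CpG. The median ratio of observed to expected CpG was 0.243 for the 109 promoters, 0.794 for start sites on in all 9 strains, 0.185 for those off in all 9 and 0.586 for all 20085. A ratio over 0.6 was found in 11%, 76.4%, 7.00% and 48.9% of these sets, and the median GC content was 52.7%, 61.7%, 46.7% and 57%. In these measures the promoters in switch regions lay nearer to those off in all strains. TATAAA, the TATA box, occurred in 14.7% of the 109 promoters, 6.35% of those on in all 9 and 25.6% of those off in all 9. CCGGAAG, an ETS-type motif, occurred in 5.50%, 21.4% and 2.10%. TGTTTAC occurred in 8 of the 109 (7.34%), Cfhr3 and Gm4788 included, against 3.04% of all promoters, and the interferon-stimulated response element core in 7 (6.42%) against 3.38%. These are 4 of 10 motifs searched on both strands, and a match is a description of letters and not a binding site.

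Genes of 16 functional lists were counted where a switch region lay within 1 kb of an end. Over all 20665 coding autosomal genes 838, or 4.06%, had one. Among cytochrome P450 genes 11 of 64 did (17.2%), among genes known to differ between the sexes in mouse liver 13 of 60 (21.7%), among conjugation enzymes 6 of 62 (9.68%) and among plasma protein genes 7 of 101 (6.93%). Interferon-related genes had 12 of 81 (14.8%) and major histocompatibility complex genes 5 of 26 (19.2%). Lipid and bile genes had 3 of 74 (4.05%) and transporters 2 of 43 (4.65%), near the background. Liver transcription factors had 1 of 56 (1.79%), and glucose metabolism (36), hepatocyte markers (20), Kupffer cell and leukocyte markers (29), developmental regulators (30) and housekeeping genes (18) had none. The lists overlap, and many of the P450, sex-biased, interferon and histocompatibility genes belong to families of near copies, for which the placement of reads is uncertain. Lists also differ in gene length and in neighbourhood.

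Among drug-metabolising genes, the 3′ ends of Cyp2b9 and Cyp2b13, P450s with higher expression in females, were in switch regions. The 3000 bp of chr7:26206801-26209800 at Cyp2b9 were in state 14 in all 15 bins in 129S1/SvImJ and PWK/PhJ, and in state 2 in 10 to 15 bins in the 6 on strains, with A/J mixed. The annotated 3′ end itself lay in a second region, chr7:26210601-26212600. There 129S1/SvImJ and PWK/PhJ were in state 14 in all 10 bins, and the other 7 strains, A/J included, were on. At Cyp2b13 (chr7:26094201-26096800) 129S1/SvImJ and CAST/EiJ were in state 14 in all 13 bins, and DBA/2J, NOD/ShiLtJ, NZO/HlLtJ and WSB/EiJ in state 2 in all 13. The near copies thus shared 129S1/SvImJ as an off strain but not the other. At the start of Cyp2c39 (chr19:39346201-39347600) C57BL/6J and PWK/PhJ were in state 2 in all 7 bins, CAST/EiJ was in states 1 and 2, and the other 6 strains were in state 14 in all 7.

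Sult1e1 inactivates oestrogens by sulfation. In the region over its start (chr5:87590801-87592600) CAST/EiJ and PWK/PhJ were in state 14 in all 9 bins, WSB/EiJ in state 1 in all 9, NOD/ShiLtJ in state 2 in all 9, and C57BL/6J was mixed with 4 bins in state 2 and 5 in state 4. At the 3′ end of Gstm7, a glutathione transferase, NZO/HlLtJ was in state 1 and PWK/PhJ in state 2 in all 7 bins, and A/J, C57BL/6J and NOD/ShiLtJ were off. At Sult3a1, an amine sulfotransferase, A/J and NZO/HlLtJ were in state 14 in all 7 bins of chr10:33877601-33879000, and 129S1/SvImJ in state 2 in all 7. In a second region at this 3′ end, chr10:33880401-33882600, A/J and C57BL/6J were in state 14 in all 11 bins and NZO/HlLtJ was mixed. The off strains of these regions differed between the 3 conjugation genes.

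Among plasma protein genes, the 3′ end of Serpina1e, an alpha-1-antitrypsin paralogue, was on in CAST/EiJ and PWK/PhJ alone, with state 2 in all 13 bins in PWK/PhJ. Serpina3a had 2 regions of 600 bp at its start, off in NZO/HlLtJ and PWK/PhJ in all 3 bins of each. The region at the 3′ end of Hamp2, a hepcidin paralogue, was in state 14 in all 6 bins in CAST/EiJ and WSB/EiJ and on in 6 strains. Among lipid genes, the 3′ end of Cyp51, a cholesterol synthesis enzyme, was in state 14 in all 7 bins in A/J and WSB/EiJ. Regions at Acadvl, for the oxidation of very long fatty acids, and Srebf2, the regulator of cholesterol synthesis, both lay at the 3′ end and had 3 bins each. The region at Abcg5, a sterol exporter, had 2 bins. Bhlhe41, a circadian repressor, was the only gene of the liver transcription factor list with a switch region within 1 kb of an end. In that region, at the 3′ end, 129S1/SvImJ, C57BL/6J and WSB/EiJ were on.

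Among immune genes, the start of Trim30d (chr7:104507001-104508600) was on in C57BL/6J, NOD/ShiLtJ and PWK/PhJ, with state 1 in 7, 5 and 7 of 8 bins. State 14 covered all 8 bins in 129S1/SvImJ, A/J, CAST/EiJ and DBA/2J. At the start bin of Trim12a C57BL/6J and CAST/EiJ were in state 1 and 6 strains in state 14. The region of 2800 bp over Ly6a, a stem cell antigen (chr15:74995601-74998400), was in state 14 in all 14 bins in CAST/EiJ and WSB/EiJ and in state 1 in all 14 in NZO/HlLtJ. Ifi207, an interferon-inducible DNA sensor family member, was in state 3 in C57BL/6J and PWK/PhJ and in state 14 in 129S1/SvImJ and NOD/ShiLtJ, in all 3 bins. At H2-T23, a non-classical histocompatibility gene, both regions were in state 14 in CAST/EiJ and WSB/EiJ, and DBA/2J and NZO/HlLtJ were on in both. Regions at H2-Q1 and H2-T24 were off in 4 and 3 strains. Near Siglecf, a lectin of eosinophils, CAST/EiJ, DBA/2J and PWK/PhJ were in state 14 in all 10 bins at the start. The 3′ end of Pigo, a glycolipid anchor enzyme, was on in NOD/ShiLtJ and PWK/PhJ alone. The predicted genes Gm40378 and LOC115488029 each had 4 regions within 1 kb of an end.

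Markers of other liver cells also had switch regions, 3 of 20 on the endothelial list (15%) and 2 of 20 on the stellate and duct list (10%), against 4.06% of all coding genes. Stab2, a hyaluronan receptor of sinusoidal endothelium, was on at its start in DBA/2J, NZO/HlLtJ and PWK/PhJ and in state 14 in all 7 bins in A/J and NOD/ShiLtJ (chr10:87006801-87008200). Over the starts of the 12 endothelial markers, A/J and NOD/ShiLtJ had the lowest shares of on bins, 17.5% and 19.5%, and the highest shares off, 40.3% and 40.9%, while DBA/2J, NZO/HlLtJ and PWK/PhJ had 35.7%, 35.1% and 51.9% on. 129S1/SvImJ had 39.6% on, above DBA/2J and NZO/HlLtJ, but was in state 9 in all 7 bins at Stab2. Over the 10 endothelial markers without a switch region of their own, a subset taken after the data had been seen, A/J and NOD/ShiLtJ were again lowest with 20.5% and 22.7% on, and PWK/PhJ was highest with 51.5%. The part of endothelial cells in the hepatocyte preparations in this result was not tested. Lyve1, a related receptor, had a different division, with NOD/ShiLtJ and PWK/PhJ in state 3 and A/J and DBA/2J in state 14 in all 3 bins. Robo4, an endothelial guidance receptor, had a region of 2 bins. At Spp1, osteopontin, of bile duct and other cells, PWK/PhJ was in state 13 in all 7 bins of chr5:104436001-104437400 and WSB/EiJ in 5, while C57BL/6J, NOD/ShiLtJ and NZO/HlLtJ were in state 1 in all 7. In the other region at its start, chr5:104435201-104435800, A/J, DBA/2J and PWK/PhJ were in state 14 and WSB/EiJ in state 13 in all 3 bins. C57BL/6J and NOD/ShiLtJ were on there. Over the 12 stellate and duct markers left in the same way, PWK/PhJ and WSB/EiJ had 5.22% and 4.48% of bins on, within the range of the other strains (4.48% to 8.96%). Their off shares, 62.7% and 58.2%, were also within the range of the others, 54.5% in 129S1/SvImJ to 68.7% in A/J. A/J and DBA/2J, off in the other Spp1 region, had 5.22% and 8.21% on and 68.7% and 62.7% off. The part of these cells in the Spp1 result was not tested. Ecm1, an extracellular matrix protein, had a region of 2 bins near its start, in state 3 in 129S1/SvImJ and NZO/HlLtJ.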

How the data were processed

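Hepatocyte chromatin of 9 strains was profiled by ChIP-seq of 4 histone marks in 3 mice per strain with 1 input library each, and libraries were grouped by the strain in the labels. The authors deposited 1 segmentation per strain, per the file headers: column 4 is a category, the number of 1 of 14 states, and not a count, signal or score. The submitters' processing notes name mm10, FastQC 0.11.5 and MACS 1.4.2 without a role. The aligner, the segmentation tool, the treatment of strain-specific sequence and the way the mice were combined are not given in the sources used here. Depth is unknown, so no counting interval is given, and p-values measure only the spread between strains, which share ancestry.

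Segments were written as 200-bp bins of the 19 autosomes. Regions were built by the rule given above. Gene ends came from a RefSeq table and start sites with 300-base promoters from a RefSeq promoter table, both GRCm38.p6. The promoter table holds 20085 autosomal coding start sites and none of chromosome 18. These belong to 16457 genes, against 20665 coding autosomal genes, so genes of other chromosomes also lack a start, Eya1 and Myom2 among them. Distances and shares near starts use only the starts held. What the rule used is given without a test. For measures it did not use, each strain's difference was given either sign in an exact two-sided permutation test (n = 9, 512 sign patterns, smallest p 0.0039, threshold 0.05). Benjamini-Hochberg adjustment was made over states 1, 2 and 3. Genes and regions named are the 10 longest regions, the 10 longest with every strain on or off in all bins, the 10 coding genes with the most region bins within 1 kb of an end, and up to 3 genes per list. The regions, lists and tests were chosen with earlier results of these data known. The software was biopython 1.88 (promoter alignment), pandas 2.3.3, numpy 2.4.6, scipy 1.17.1 and matplotlib 3.10.9 under Python 3.11.15. On simulated segmentations of 200000 bins all 200 planted regions were found exactly, and a difference of 30 points in the state 2 share was recovered as 29.0.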

Additional observations from a re-analysis of the deposited data

How the results depend on the processing

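No paired analysis was possible because each strain has 1 deposited segmentation that combines its mice, so replicate numbers carry no values. The number of regions (15827) depends on the rule: it was 3752 with at least 3 strains on each side, 8665 with a minimum of 600 bp, 32928 with single bins kept and 3310 with states 1 and 3 alone as on, and 15532 with state 14 alone as off. With each strain left out it ran from 9415 (without PWK/PhJ) to 13781 (without A/J). The differences in states 1, 2 and 13 and in states 4 to 12 beside the regions kept their direction and their side of the threshold in every alternative run. The state 3 difference did so in 13 of 14, and was -0.31 percentage points (exact adjusted p = 0.16) among bins farther than 1 kb from coding starts, chosen after seeing the data. With a strain left out the differences ran from -27.7 to -25.8 points for state 1, 30.4 to 31.9 for state 2, -4.65 to -4.01 for state 3, -9.42 to -9.04 for state 13 and 16.2 to 17.1 for states 4 to 12. For states 4 to 12 the alternatives cannot tell surroundings from the continuation of the same domain, because on runs often reach past the region. Where a call needed all bins, 129S1/SvImJ was on in 35.4% of regions, moved by more than the SD between strains, and PWK/PhJ was off in 49.2%. The share within 1 kb of a coding start, 2.19%, was 1.41% at 500 bp, 3.72% at 2 kb and 4.26% with the starts of all annotated genes, and the genes with a region near an end numbered 1337 at 2 kb. The split of states 1 to 3 with state 2 left out of the rule, and the state 13 share with state 13 left out, were not run, because the rule then fixes them.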
